A study of Caenorhabditis elegans with 4 samples.

Results

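NHR-76 binding regions on chromosome IV of Caenorhabditis elegans were taken as every feature line of the authors' combined peak list whose chromosome is IV, with no cut on the q-value. There were 535 such regions among the 2714 of the 6 nuclear chromosomes, and the choice used the chromosome name alone. The data come from chromatin immunoprecipitation and sequencing (ChIP-seq) of hermaphrodites of strain OP203 at the L3 larval stage, raised at 20 °C and cross-linked with 2% formaldehyde. All 4 libraries came from worms that carry the unc-119(ed3) mutation and the bombarded transgene wgIs203, in which nhr-76 is joined to TY1, EGFP and FLAG tags and which also holds an unc-119 copy. Of these libraries, 2 were precipitated with anti-GFP antibodies and 2 are input chromatin with the same replicate numbers. The labels call the tagged protein's expression pattern correct, and they name no change to the worm's own nhr-76 gene. Whole worms were used, so binding in different tissues cannot be told apart. What the files hold is peak intervals in WormBase WS220 coordinates, listed once per ChIP replicate and once for the replicates combined. The depth behind them is unknown. Whether the replicates were separate worm cultures is not stated, so their agreement may be technical.

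NHR-76 belongs to the nuclear hormone receptors, transcription factors with a zinc-finger DNA-binding domain and a domain that can bind small lipophilic molecules. This family is greatly expanded in C. elegans, and most of its members are related to the vertebrate receptor HNF4. NHR-76 is known in the worm for acting in the intestine in the loss of body fat that serotonin triggers, where it is needed for induction of the triglyceride lipase gene atgl-1. Chromosome IV is an autosome, and like the other worm autosomes it has a gene-dense middle with little recombination between repeat-rich arms. It also holds most of the worm's piRNA genes, which encode small RNAs of the germ line. The nhr-76 gene itself (locus tag C05G6.1) lies on chromosome IV in RefSeq's WBcel235 annotation. Positions of that assembly were not used, because it is not the build of the peak lists, so regions are named by WS220 coordinates and not by genes.

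The authors' q-value, a significance measure adjusted for multiple testing and for which smaller is stronger, ran on chromosome IV from 1.26e-26 to 0.00998. Its median was 0.00223. Below 1e-20 were 4 of the 535 regions, below 1e-10 were 21 (3.93%) and below 1e-05 were 75 (14.0%). Most lay near the limit of the list, with 316 regions (59.1%) between 0.001 and 0.01. The regions had a median width of 277 bp (quartiles 188 and 395.5 bp) and covered 168 kb, which is 0.960% of the chromosome span of 17486620 bp. The widest region spanned 1675 bp and 6 reached 1000 bp, while 62 were under 100 bp and 30 under 50 bp, down to 3 bp. Strong regions were wide: Spearman's rho between −log10 q and width was 0.71 over the 535 regions. This is a description, since width and q come from the same caller on the same reads. Among the 75 regions with q under 1e-05 the median width was 473 bp, and among the 316 weakest it was 200 bp.

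**Figure D1:**
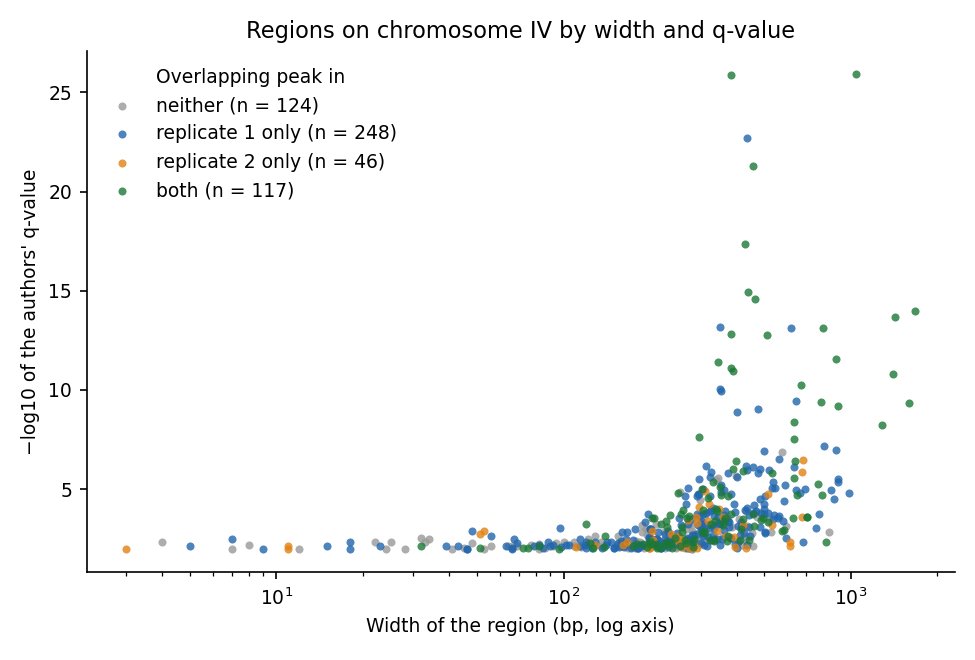
Each of the 535 chromosome IV regions is a point, with its width in bp on a log axis against −log10 of the authors' q-value, coloured by which replicate lists hold an overlapping peak. Regions with −log10 q above 10 are all at least 344 bp wide, and the regions under 100 bp wide lie at the bottom of the q scale.

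The strongest region lay from 2601953 to 2602994, with q = 1.26e-26 and a width of 1042 bp. It met a peak of rank 431 in replicate 1, with a score of 3.06, and a peak of rank 11 in replicate 2, with a score of 2.12, which are the highest scores of their lists. Ranks are over all nuclear peaks of a replicate. The highest score was shared by 549 nuclear peaks of replicate 1 and 47 of replicate 2, so ranks up to these numbers follow the authors' peak numbers and show no difference in score. Its centre was 341 bp from that replicate 1 peak and 61 bp from that replicate 2 peak, so the best peaks of the replicates sat at different places in this wide region. The strongest region and its neighbours form a run of 4 regions from 2599641 to 2604240. The region from 2599641 to 2600121 (q = 3.15e-05) met a replicate 1 peak of rank 370 and no replicate 2 peak.

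The next region, from 7243920 to 7244302, had nearly the same q (1.29e-26) in 383 bp. It was at rank 7 in replicate 1 and rank 29 in replicate 2, and its centre lay 4.5 bp and 35.5 bp from the centres of those peaks. It was thus strong and sharply placed in all 3 lists.

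The region from 13318692 to 13319125 was the exception among the strongest. Its q of 2.00e-23 placed it 3 on the chromosome and 13 in the whole list, yet its only replicate 1 peak ranked 16853, with a score of 0.679 and a centre 236 bp away. No replicate 2 peak met it. A second strong region lay 3199 bp to the right, from 13322325 to 13322834 (q = 1.67e-13), at rank 509 in replicate 1 and rank 11554 in replicate 2. The first of this pair was thus high in the combined list, low in replicate 1 and without a peak in replicate 2.

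The region from 8534883 to 8535338 had q = 5.00e-22, with a replicate 1 peak of rank 19 and a replicate 2 peak of rank 1137. The replicate 1 peak covered 382 bp of the region, with its centre 46 bp away. The replicate 2 peak covered only 36 bp of it, with its centre 592 bp away. To the left of this region, across 2510 bp, stood the longest run of the chromosome. This run held 7 regions from 8525865 to 8532372, with q from 1.45e-06 to 0.00479. Of the 7, 5 met a replicate 1 peak and 3 met a replicate 2 peak. The regions starting at 8527442 and 8528290 met the same replicate 2 peak, of rank 7503, which covered 464 bp and 18 bp of them. The replicate 1 peak of the region from 8530650 to 8531051 (q = 2.49e-06) ranked 114 and its centre lay 14 bp away. The replicate 2 peak of the region from 8531451 to 8531700 (q = 1.54e-05) ranked 545. The different regions of the run thus led in the different replicates.

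Near the right end, the interval from 17249693 to 17279571 held 3 strong sites. At the first of them, the region from 17249693 to 17250036 (q = 4.10e-12) met peaks of rank 11 in replicate 1 and rank 3 in replicate 2, with centres 7 bp and 3 bp away. The region from 17263654 to 17264081 (q = 4.31e-18) ranked 31 and 8, and its neighbour from 17263007 to 17263387 (q = 7.85e-12) ranked 41 and 8. These last regions lie 266 bp apart and share 1 replicate 2 peak, which covers 428 bp of the first and 1 bp of the second, so the second has no rank 8 peak of its own. The region from 17278144 to 17279571 (q = 2.00e-14, 1428 bp) was lower in both, at ranks 1351 and 2774. Beyond it came a region with no peak of either replicate and then 190.7 kb with no region, up to the last one on the chromosome, from 17472096 to 17472676 (q = 3.93e-04).

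Of the 20 regions of lowest q, which reach q = 5.84e-11 and rank 118 of the whole list, all 20 met a replicate 1 peak and 17 met a replicate 2 peak. They were 344 to 1675 bp wide. Within the first 1000 peaks lay 15 of them in replicate 1 and 10 in replicate 2, and 9 in both. Peaks of the highest score in both lists met 6 of them, which are the regions starting at 2601953, 7243920, 9444333, 17249693, 17263654 and, by 1 bp in replicate 2, 17263007. The region from 9444333 to 9445001 (q = 5.84e-11) ranked 232 and 4. The region from 11097796 to 11098185 (q = 1.05e-11) ranked 242 and 151. Others stood high in replicate 1 alone. The region from 11363964 to 11364400 (q = 1.13e-15) ranked 22 and 8407, and the region from 4749881 to 4750229 (q = 6.43e-14) ranked 13 with no peak in replicate 2. The region from 9511103 to 9511986 (q = 2.75e-12) went the other way, at ranks 4745 and 121.

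Replicate 1 peaks were the more frequent partners over all the regions. Of the 535, 365 (68.2%) shared 1 bp or more with a replicate 1 peak, against 73.7% of all nuclear combined regions, and 163 (30.5%) overlapped a replicate 2 peak, against 34.5%. Peaks of both replicates met 117 regions (21.9%, exact 95% interval 18.4 to 25.6), against 27.3% of all. At least 1 replicate met 411 (76.8%), against 80.9%. By class, 248 regions (46.4%) met replicate 1 only, 46 (8.60%) met replicate 2 only and 124 (23.2%, interval 19.7 to 27.0) met neither. Regions in both lists were the strongest and widest class, with a median q of 3.72e-04 and a median width of 337 bp. Regions in neither had a median q of 0.00473 and a median width of 205 bp. A wider region meets a peak more readily when 1 shared bp is enough, so this order of classes is a description. The strongest in neither list ran from 10222014 to 10222588 (q = 1.35e-07, 575 bp), followed by those from 13549271 to 13549668 (q = 2.10e-06) and from 14872265 to 14872609 (q = 2.77e-06). Intervals cover counting error only.

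Overlap also depends on how much of the chromosome the replicate peaks cover. Peaks are 400 bp wide in nearly all of replicate 1 and 800 bp wide in nearly all of replicate 2, and on chromosome IV they covered 7.56% and 15.7% of the span. Windows of the regions' own widths, placed at every position of chromosome IV, would meet a replicate 1 peak at 13.0% of positions and a replicate 2 peak at 20.7%. The 68.2% met in replicate 1 is 5.24 times that coverage figure, and the 30.5% met in replicate 2 is 1.47 times it. In replicate 2 the share met was thus much nearer to its coverage figure. That figure treats every position of the chromosome alike, and the cause of the nearness was not tested.

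The centres of the partner peaks differed in the same direction. From a region's centre to that of its best replicate 1 peak the median distance was 57.5 bp (n = 365), and 254 of these (69.6%) lay within 100 bp. For replicate 2 the median was 202.0 bp (n = 163), and 45 (27.6%) lay within 100 bp. The wider replicate 2 peaks can meet a region from farther away. Partner ranks had a median of 3541 in replicate 1 and 9513 in replicate 2.

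**Figure D2:**
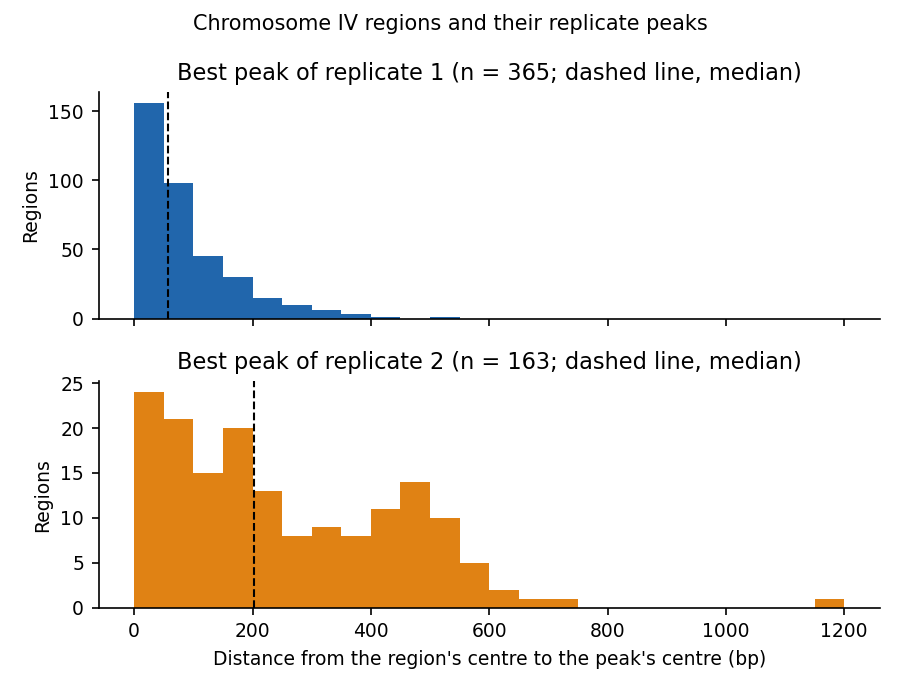
Histograms of the distance in bp from the centre of each chromosome IV region to the centre of its best ranked overlapping peak, for replicate 1 (above, 365 regions) and replicate 2 (below, 163 regions), with dashed lines at the medians of 57.5 and 202.0 bp. Replicate 1 centres pile up near 0, and replicate 2 centres spread far more widely.

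Chromosome IV regions were compared with the 2179 regions of the other 5 nuclear chromosomes to ask whether they were found as often in the single replicates and were as strong. They were found less often in each replicate. In replicate 1 it was 68.2% (interval 64.1 to 72.2) against 75.0% (73.2 to 76.8), an odds ratio of 0.714 (Fisher's exact test, on both sides, with p adjusted over 8 shares = 0.00705). In replicate 2 the shares were 30.5% (26.6 to 34.6) and 35.5% (33.5 to 37.6), with an odds ratio of 0.795 (Fisher's exact test, adjusted p = 0.0465). For both replicates they were 21.9% and 28.7%, with an odds ratio of 0.696 (Fisher's exact test, adjusted p = 0.00705), and for at least 1 replicate 76.8% and 81.9% (odds ratio 0.734, Fisher's exact test, adjusted p = 0.0263). Fewer chromosome IV regions were strong, with q under 1e-05 in 14.0% against 18.2% (odds ratio 0.734, Fisher's exact test, adjusted p = 0.0465), where the whole list holds 17.4%. The median q of 0.00223 stands beside medians of 0.00144 to 0.00169 on the other chromosomes. These tests treat regions as independent, although neighbours can share a peak. The replicate 2 and q differences passed the threshold narrowly and were lost under all of their alternatives. Among regions with q under 0.001 all 4 overlap differences lost their call (Fisher's exact test, adjusted p = 0.159 to 0.895): the shares drew together for replicate 1 (84.0% against 85.1%) and stayed apart for replicate 2 (38.8% against 46.0%) and for both (32.0% against 39.9%). The call was also lost for both with the strongest 5000 peaks of each replicate (Fisher's exact test, adjusted p = 0.0653) and for at least 1 replicate without chromosome I (adjusted p = 0.0541).

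**Figure D3:**
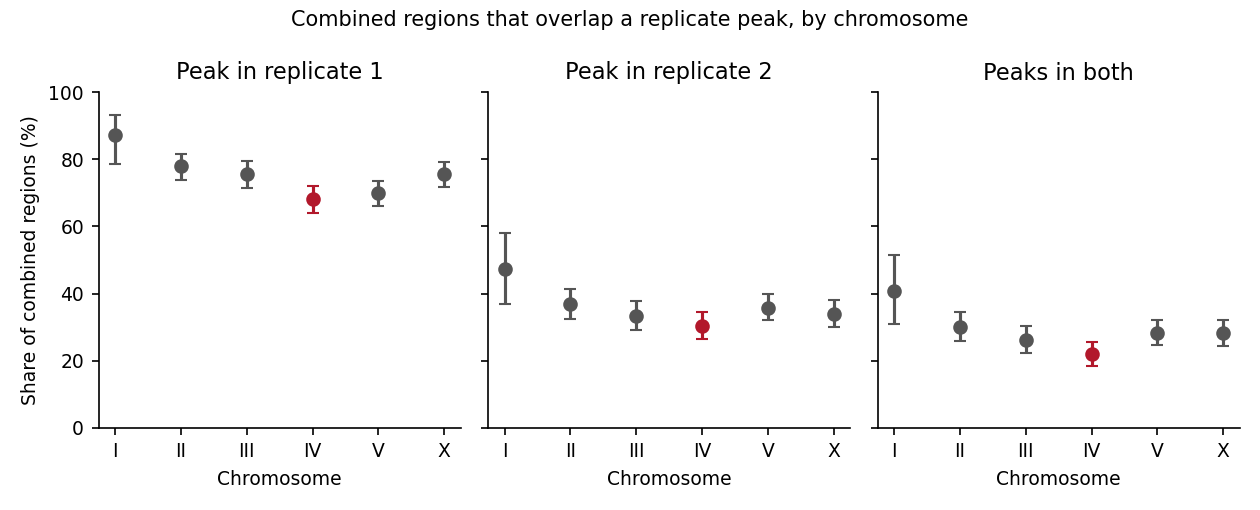
Points show the share of combined regions on each nuclear chromosome that overlap a peak of replicate 1, of replicate 2 or of both, in percent, with exact 95% intervals and chromosome IV in red. Chromosome IV has the lowest point in each panel, at 68.2%, 30.5% and 21.9%, and its intervals overlap those of several other chromosomes.

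Set against each of the other chromosomes in turn, a follow-up of 20 pairs chosen after these shares were seen, chromosome IV was not told apart from all of them. Chromosome I held only 93 regions, or 6.18 per Mb, where the other nuclear chromosomes had 28.8 to 35.1 per Mb. In replicate 1 chromosome IV was lower than chromosome II (77.8%, Fisher's exact test, adjusted p = 0.00328), III (75.6%, adjusted p = 0.0220), X (75.7%, adjusted p = 0.0195) and I (87.1%, adjusted p = 0.00111). Against chromosome V, which held 69.98%, the odds ratio was 0.921 (Fisher's exact test, adjusted p = 0.593). For both replicates it was lower than chromosome V (28.2%, Fisher's exact test, adjusted p = 0.0332), X (28.1%, adjusted p = 0.0356), II (30.1%, adjusted p = 0.0107) and I (40.9%, adjusted p = 0.00146), while against III (26.2%) the adjusted p was 0.133. In replicate 2 it was lower than chromosome I (47.3%, Fisher's exact test, adjusted p = 0.00618) and II (36.9%, adjusted p = 0.0496), and the pairs with III, V and X did not pass the test. For at least 1 replicate it was lower than I (93.5%, Fisher's exact test, adjusted p = 0.00111), II (84.6%, adjusted p = 0.00618) and III (82.6%, adjusted p = 0.0399), and not told apart from X (81.5%, adjusted p = 0.0934) or V (77.6%, adjusted p = 0.777). Replicate peaks were themselves sparsest on chromosome IV. There were 195.2 replicate 1 peaks per Mb there, against 201.7 to 219.9 elsewhere, and 242.6 replicate 2 peaks per Mb, against 247.0 to 263.2. The median width of the regions was also lowest on chromosome IV, at 277 bp against 280 to 385 bp elsewhere. The coverage figure for windows, which rests on both peak cover and region width, was likewise lowest on chromosome IV. It was 13.0% against 13.8% to 17.2% in replicate 1 and 20.7% against 21.5% to 24.3% in replicate 2. The ratio of the share met to this figure was 5.24 on chromosome IV in replicate 1, within the 4.75 to 5.29 of the others. In replicate 2 it was 1.47, where the others ran from 1.48 to 1.95. As a difference, the share met exceeded this figure by 55.2 percentage points in replicate 1, where the others ran from 56.2 to 69.9, and by 9.76 in replicate 2, where the others ran from 10.9 to 23.1. The part of peak density and of region width in the lower shares was not tested.

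Within classes of q, the replicate 1 difference passed the test in the weakest class. With q between 0.001 and 0.01, 181 of 316 chromosome IV regions (57.3%) met a replicate 1 peak, against 818 of 1219 (67.1%) elsewhere (odds ratio 0.657, Fisher's exact test, adjusted p = 0.0131 over 9 tests). With q between 1e-05 and 0.001 the shares were 79.9% and 79.8%, with an odds ratio of 1.005. With q under 1e-05 they were 92.0% and 92.7%, with an odds ratio of 0.909 and a wide interval of 0.353 to 2.78. Whether the difference itself changed between classes of q was not tested, and the classes were set after the overall shares were seen. For replicate 2 the shares in the same order were 24.7% against 27.2%, 34.0% against 37.8% and 48.0% against 57.8%, and none of these passed the test (smallest adjusted p by Fisher's exact test 0.375).

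**Figure D4:**
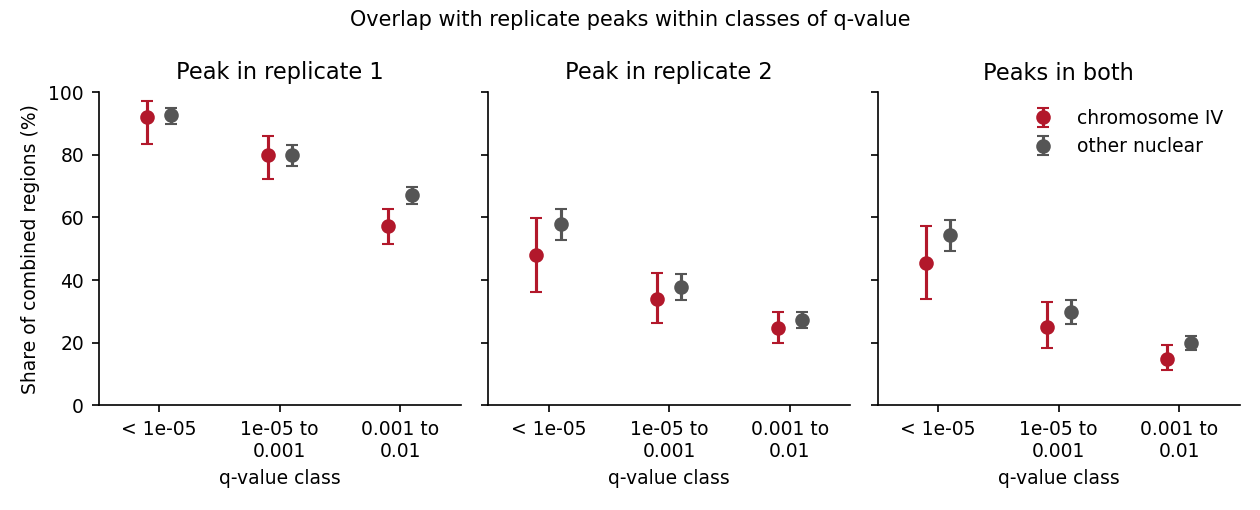
Points show the share of regions that overlap replicate peaks within 3 classes of the authors' q-value, in percent with exact 95% intervals, for chromosome IV (red) and the other nuclear chromosomes (grey). In replicate 1 the points stand together in the stronger classes and apart in the weakest, at 57.3% and 67.1%.

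Counted from the replicate peaks to the regions, the shares on chromosome IV were not below those elsewhere in the full lists, but were so once chromosome I was left out. Of its 3413 replicate 1 peaks, 429 (12.6%) met a region, against 11.1% elsewhere and 12.8% without chromosome I. Of its 4242 replicate 2 peaks, 232 (5.47%) did, against 5.21% and 5.97%. By rank in replicate 1, the share on chromosome IV was above that elsewhere in each of 5 classes. Once chromosome I was left out, it was below that elsewhere in the first and last of these classes. Among replicate 1 peaks of ranks 1 to 300, 35 of 37 on chromosome IV (94.6%) met a region. Elsewhere it was 93.9%, and 96.5% without chromosome I. At ranks 301 to 1000 it was 67 of 123 (54.5%), against 43.7% elsewhere and 51.4% without chromosome I, which has few regions. In the later classes it was 27.6% against 23.5% up to rank 3000, 12.9% against 10.5% up to rank 10000 and 5.41% against 4.80% beyond. Without chromosome I the shares elsewhere in these later classes were 27.1%, 12.2% and 5.7%. Rank 300 falls among the 549 nuclear peaks tied at the highest replicate 1 score, so the cut between the first classes follows the authors' peak numbers. Of the 89 chromosome IV peaks at the highest replicate 1 score, 72 met a region. The first without one lay from 8927023 to 8927422 at rank 230, with a replicate 2 peak of rank 2816 over it and the nearest region 33007 bp away. In replicate 2, 17 of 56 peaks at ranks 1 to 300 met a region (30.4%, against 24.2% elsewhere), and at ranks 301 to 1000 it was 10 of 109 (9.17%, against 12.7%). In the later classes it was 6.23% against 8.44% up to rank 3000, 5.729% against 5.455% up to rank 10000 and 4.55% against 3.97% beyond. Without chromosome I the replicate 2 shares elsewhere were, in order of rank, 26.8%, 14.5%, 9.47%, 6.15% and 4.62%. Of the 9 at the highest replicate 2 score, 6 met a region. The 3 without were the peaks from 621452 to 622251 at rank 20, 105693 to 106492 at rank 23 and 644175 to 644974 at rank 34, all near the left end. The first of these lay 69 bp from a region, and the first and last met no replicate 1 peak. These shares were not tested.

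Along the chromosome, regions were most frequent left of its centre and sparse toward the right end. With the span divided into 10 equal parts, part 5 (6994649 to 8743310) held 74 regions, or 42.3 per Mb, and part 10 (15737959 to 17486620) held 35, or 20.0 per Mb. The middle 60% of the span held 357 regions (66.7%), against 68.1% of all nuclear regions. The odds ratio to the other chromosomes was 0.926 (95% interval 0.754 to 1.14, Fisher's exact test, adjusted p = 0.536). Part 5 had many regions but a low share in both replicates, with 12 of 74 (16.2%), and 22 in neither. Part 10 had the fewest regions and the highest share in both replicates, 12 of 35 (34.3%), and part 1 the lowest, 6 of 47 (12.8%). Replicate 2 peaks did not follow the same course, with 495 in part 1 and 373 in part 6, where replicate 1 had 328 and 356. Differences between parts were not tested.

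Each part of the span had at least 3 regions with q under 1e-05, and part 7 (10491973 to 12240634) had most, with 13. The lead regions of parts 2, 5, 8 and 10 were the strong regions at 2601953, 7243920, 13318692 and 17263654. Part 1 was led by the region from 654759 to 655223 (q = 2.61e-15), part 3 by the one at 4749881 and part 4 by the one from 5778007 to 5778807 (q = 7.36e-14). Part 6 was led by the region at 9511103, part 7 by the one at 11363964 and part 9 by the widest region, from 14032890 to 14034564 (q = 1.08e-14). That widest region met 4 replicate 1 peaks, the best at rank 164, and 2 replicate 2 peaks, the best at rank 594. The other regions among the 5 widest, in order of width, lay from 11593361 to 11594956 (1596 bp), at 17278144, from 3232702 to 3234097 (1396 bp) and from 13394514 to 13395796 (1283 bp).

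**Figure D5:**
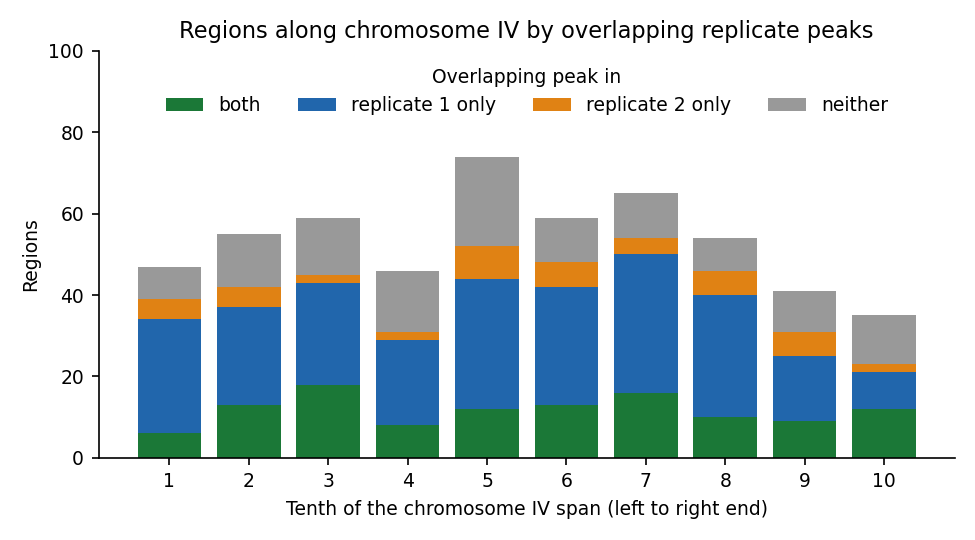
Bars give the number of regions in each of 10 equal parts of the chromosome IV span, from the left to the right end, split by which replicate lists hold an overlapping peak. The counts run from 74 in part 5 to 35 in part 10, and the green section for both replicates is 12 in each of these parts.

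Some of the regions were close together. The median gap to the nearest region on the chromosome was 6657 bp, and 149 of 535 (27.9%) had another within 2000 bp, against 27.3% of all nuclear regions. The odds ratio to the other chromosomes was 1.04 (95% interval 0.833 to 1.29, Fisher's exact test, adjusted p = 0.745). No gap was under 200 bp on any nuclear chromosome, so the caller's output holds no closer pair. Linked by gaps of at most 2000 bp, 386 regions stood alone, 45 groups held 2, 13 held 3 and 4 held 4 or more. Besides the run of 7 and the run around the strongest region, these were 5 regions from 13388752 to 13395796 and 4 from 4019044 to 4024830. In the run of 5, q ran from 3.98e-10 to 8.51e-04 and the widths from 97 to 1283 bp, with 4 regions in replicate 1, 3 in replicate 2 and 2 in both. Its region from 13388752 to 13389432 (q = 3.41e-07) was the strongest on the chromosome with a replicate 2 peak only, at rank 2918 and with its centre 5.5 bp away. The run of 4 from 4019044 had 2 regions in each replicate and 1 in both. Regions of at least 500 bp were 74 of 535 (13.8%), against 16.0% of all nuclear regions (odds ratio to the others 0.814, interval 0.612 to 1.07, Fisher's exact test, adjusted p = 0.196).

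The longest stretch with no region ran from 4881040 to 5133865 (252.8 kb). It was not empty in the replicate lists, which held 43 replicate 1 peaks there, the best at rank 1505, and 55 replicate 2 peaks, the best at rank 379. The next stretch, from 15933293 to 16167985 (234.7 kb), held 35 and 54 peaks, with best ranks of 1096 and 132.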

How the data were processed

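Peak lists of 2 ChIP replicates and 1 combined list were read; samples were grouped by title. The authors deposited a q-value for each combined region, from PeakSeq per its source and attribute fields, and a score of unstated scale for each replicate peak, from SPP via IDR (irreproducible discovery rate) as the source fields have it. Coordinates are WormBase WS220, per the file headers. Of caller settings, the use of input and any pooling of replicates nothing is said in these sources. The lists come from different programs, which can move overlaps. Mitochondrial peaks were left out.

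Overlap required 1 shared bp, and the best partner is the peak of best rank. The span is the largest peak end in any list. Shares have exact Clopper-Pearson 95% intervals. Chromosome IV was compared with the other nuclear chromosomes by Fisher's exact test, two-sided, with Benjamini-Hochberg adjustment over 8 shares and a threshold of 0.05. Named regions were the 20 of lowest q, the 5 widest, the 3 of lowest q in neither replicate, the lead region of each of 10 parts of the span and runs of 4 or more regions, and others were chosen after their values were seen. No comment line on coordinate changes concerns chromosome IV. The regions and tests were chosen with earlier results of these data known. Odds ratios have conditional 95% intervals. Alternatives covered the overlap required, the peaks kept, chromosome I, q, width, each replicate alone and the thresholds of 4 shares. Chromosome pairs and q classes were added after the shares were seen. The overlap code was tested on simulated lists and checked against bedtools. The software was SciPy 1.17.1, pandas 2.3.3, NumPy 2.4.6 and matplotlib 3.10.9 under Python 3.11.15. No genome of this build was at hand, so no sequence is shown.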

Additional observations from a re-analysis of the deposited data

How the results depend on the processing

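Values here are the chromosome IV share minus that of the other chromosomes, in percentage points; 24 of 39 alternatives kept direction and side of the threshold for the 8 shares, 14 kept the direction and lost the call, and 1 reversed. The replicate 2 share (−5.05) lost its call under an overlap of 0.5 of the shorter interval (−4.19), with the strongest 5000 peaks of each replicate (−3.90), without chromosome I (−4.53), with q under 0.001 (−7.23) and for regions of at least 100 bp (−4.72). The share with q under 1e-05 (−4.16) lost its call without chromosome I (−3.91), for regions of at least 100 bp (−3.79) and at q under 0.001 (−3.12) or 1e-10 (−1.03). The share in both (−6.81) lost its call with the strongest 5000 peaks (−2.82) and with q under 0.001 (−7.93, on 219 against 960 regions). With q under 0.001 the replicate 1 share moved from −6.81 to −1.09 and the share in at least 1 replicate from −5.05 to −0.382, and without chromosome I the latter was −4.53. Leaving out each replicate in turn, the share in at least 1 replicate ran from −6.81 to −5.05; by construction these 2 alternatives are the other replicate's own share and add no evidence. The share with a neighbour within 2000 bp (0.728) reversed at 1000 bp (−1.45), with no call in either. The cause of the changes was not tested. No paired analysis was possible because no input peak list is among the files and a list gives 1 set of intervals. Without read counts, depth sets an unknown limit on weak regions.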
